A study of Mus musculus with 12 samples.

Results

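The genes described here are 10 secreted or membrane-bound mediators of inflammation: the CXC chemokines Cxcl1, Cxcl2, Cxcl5 and Cxcl12, the CC chemokines Ccl2 and Ccl7, the cytokine Il6, and Il1rn, Il1rl1 and Il33 of the interleukin 1 family and its receptors. They were matched by symbol to the Ensembl gene IDs of the count tables, which list 55335 genes. All 10 had 1 ID each and were among the 16597 genes with enough reads for testing. They were chosen from measured values of these same libraries, as genes whose levels had been seen to differ between groups, so their levels and differences are given below as a description and no p-value is attached to them.

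RNA-seq was run on 12 cultures of mouse fibro-adipogenic progenitors (FAPs), mesenchymal cells that lie between the fibres of limb muscle, in 4 groups of 3. FAPs had been sorted as 7AAD- Lin- Vcam- Sca1+ cells from hindlimb and forelimb muscle and were grown in alpha-MEM with 20% FBS. Smn1OE_K186R cultures had received 1 µM 4-hydroxytamoxifen (4-OHT), which switches on the Cre recombinase used to delete Bap1, and a vector for human SMN carrying the K186R change. Smn1OE cultures carried unmutated human SMN on the same kind of vector, after the same 4-OHT. Bap1KO cultures had received 4-OHT alone. WT cultures had received ethanol at an equal concentration in place of 4-OHT. BAP1 is a nuclear deubiquitinase that acts on histone H2A, and SMN assembles the small nuclear ribonucleoproteins of the spliceosome. The treatment text names Rosa-CreER as the driver, whereas the source label of the 4-OHT groups names Prrx1Cre;Bap1f/f mice. An empty vector was not among the groups, nor was 4-OHT on cells with intact Bap1. Each SMN group therefore differs from Bap1KO by the presence of a vector as well, and Bap1KO differs from WT by the drug as well. The labels do not say that replicates came from separate animals, so p-values measure only the spread between these samples. Media batches A, B and C each held a Bap1KO and a WT culture, and media batches D, E and F each held a Smn1OE_K186R and a Smn1OE culture, so group and batch cannot be told apart in any comparison between those sets.

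Chemokines are small secreted proteins that draw leukocytes along a gradient by way of receptors coupled to G proteins. CXC chemokines with an ELR motif, among them Cxcl1, Cxcl2 and Cxcl5, act on neutrophils through Cxcr2, whereas Ccl2 and Ccl7 draw monocytes through Ccr2, and Cxcl12 acts through Cxcr4 and is scavenged by Ackr3. Interleukin 1 signals through Il1r1 and Il1rap, the adaptor MyD88 and NF-kB, and Il1rn encodes the antagonist that occupies Il1r1 without signalling. Il33 is an alarmin stored in nuclei, and its receptor pairs the product of Il1rl1, known as ST2, with Il1rap. In injured muscle FAPs are known as a source of interleukin 6 and interleukin 33 and as cells that talk to macrophages and regulatory T cells.

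Library totals lay between 51.2 and 68.2 M counts over genes. Values are CPM, the reads of a gene scaled to a common library size and normalised by the trimmed mean of M values (TMM), and the order of values within a group is replicate 1, 2 and 3. Bap1 itself lay at 41.7 to 47.3 CPM in Smn1OE_K186R, 47.5 to 50 CPM in Smn1OE, 39.3 to 42.3 CPM in Bap1KO and 49.7 to 52 CPM in WT. Smn1OE thus overlapped WT, and Smn1OE_K186R overlapped Bap1KO. Counts over the whole gene need not fall when only some exons are removed. Loss of single exons and the extent of deletion in each group were not tested. Smn1 lay at 3688 to 4356 CPM in Smn1OE_K186R, at 3792 to 5593 CPM in Smn1OE and at 30.5 to 35.1 CPM in Bap1KO. Reads of the human construct may have been counted to the mouse gene, which was not tested. Xist reached at most 0.113 CPM in the SMN vector libraries and at least 197 CPM in the others. The Y-linked gene Eif2s3y was read only in the SMN vector libraries, at 57.9 to 69.7 CPM. This is the pattern of male cells with a vector and female cells without one. Sex of the cells, and with it the donor animals, therefore cannot be told apart from the vector in any comparison between these sets. The FAP markers Pdgfra and Ly6a were read in every library, at 13.9 to 106 CPM and at 198 to 929 CPM. Not all FAP markers were well read. Tcf21 reached at most 0.031 CPM in any library, and Lum and Pi16 at most 0.656 and 0.283 CPM with an SMN vector.

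The proximal promoters of the set are shown for the 3 genes that hold a match to the NF-kB consensus, since NF-kB is the textbook activator of these genes in fibroblasts. RefSeq start sites on GRCm38.p6 were at hand for 7 of the 10 genes, with 11 start sites in all; Cxcl5, Ccl2 and Ccl7 are named only. The textbook NF-kB (kappa B) consensus, searched on both strands in the 250 bases before each start, was found in 7.25% of 32851 such windows over all genes. This broad form was taken up after the matches of a narrower form, to the same 3 genes, had been seen. The matches are therefore a description and no test. Among the 11 windows of the set the consensus was found in 3, before Cxcl1, Cxcl2 and Il6. On the gene's own strand it lay at bases 71 to 62, 97 to 88 and 44 to 35 before the start. For Cxcl1 and Cxcl2 it also matched on the other strand, shifted by 1 base and overlapping the first match. The windows, each on the plus strand, are chr5:90890995-90891244 for Cxcl1, chr5:90903649-90903898 for Cxcl2 and chr5:30012864-30013113 for Il6, and capitals mark the match.
Cxcl1: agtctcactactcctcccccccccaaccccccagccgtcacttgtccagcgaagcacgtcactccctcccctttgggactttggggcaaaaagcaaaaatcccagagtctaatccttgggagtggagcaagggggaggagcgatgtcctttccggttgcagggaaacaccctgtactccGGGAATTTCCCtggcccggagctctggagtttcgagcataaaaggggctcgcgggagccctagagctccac
Cxcl2: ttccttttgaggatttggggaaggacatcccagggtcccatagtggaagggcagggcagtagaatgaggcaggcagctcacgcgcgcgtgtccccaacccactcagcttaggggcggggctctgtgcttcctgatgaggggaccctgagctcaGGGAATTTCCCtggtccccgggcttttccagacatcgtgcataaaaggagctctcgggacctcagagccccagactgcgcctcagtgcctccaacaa
Il6: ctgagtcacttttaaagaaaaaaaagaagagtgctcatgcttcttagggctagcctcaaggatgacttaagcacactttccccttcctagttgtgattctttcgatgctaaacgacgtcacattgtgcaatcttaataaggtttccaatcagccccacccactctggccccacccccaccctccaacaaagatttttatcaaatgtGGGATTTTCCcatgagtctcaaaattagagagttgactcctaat
Cxcl1 and Il6 were well read in all libraries and were lower with an SMN vector, whereas Cxcl2, with the same consensus, was at or under 1.32 CPM everywhere. An AP-1 type motif, TGANTCA, was present before Il1rn and Il6, in 2 of the 11 windows of the set and in 6.75% of all windows. A C/EBP type motif, TTGCNNAA, was present before Il1rl1, Il33 and Il6, in 3 of the 11 windows of the set and in 9.56% of all windows. These are matches of letters and say nothing of whether a factor was bound.

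Set per kilobase of exon, so that genes can be compared with each other, the CC chemokines were the most abundant of the 10 genes in every group. In Smn1OE the lowest was Il1rn, which averaged 0.0614 ± 0.0351 CPM per kb (SD, n = 3, as for all means ± SD of a group here), below Cxcl2 at 0.154 ± 0.0744 and Il33 at 0.293 ± 0.273 CPM per kb, whose ranges overlapped. Il1rn was not the lowest in WT. There Ccl7 averaged 377 ± 25.3 CPM per kb and Ccl2 216 ± 33.1 CPM per kb. Cxcl5 followed at 79.6 ± 8.71, Il1rl1 at 42.6 ± 3.66, Cxcl1 at 33.2 ± 3.45 and Cxcl12 at 20.5 ± 8.36 CPM per kb. Il6 averaged 10.8 ± 1.81 and Il1rn 4.44 ± 2.16 CPM per kb, with Il33 at 0.28 ± 0.0642 and Cxcl2 at 0.106 ± 0.0361 CPM per kb at the low end. The WT ranges of Il6 (9.29 to 12.8 CPM per kb) and Cxcl12 (10.9 to 25.9) overlapped, as no other neighbours in this order did.

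**Figure D1:**
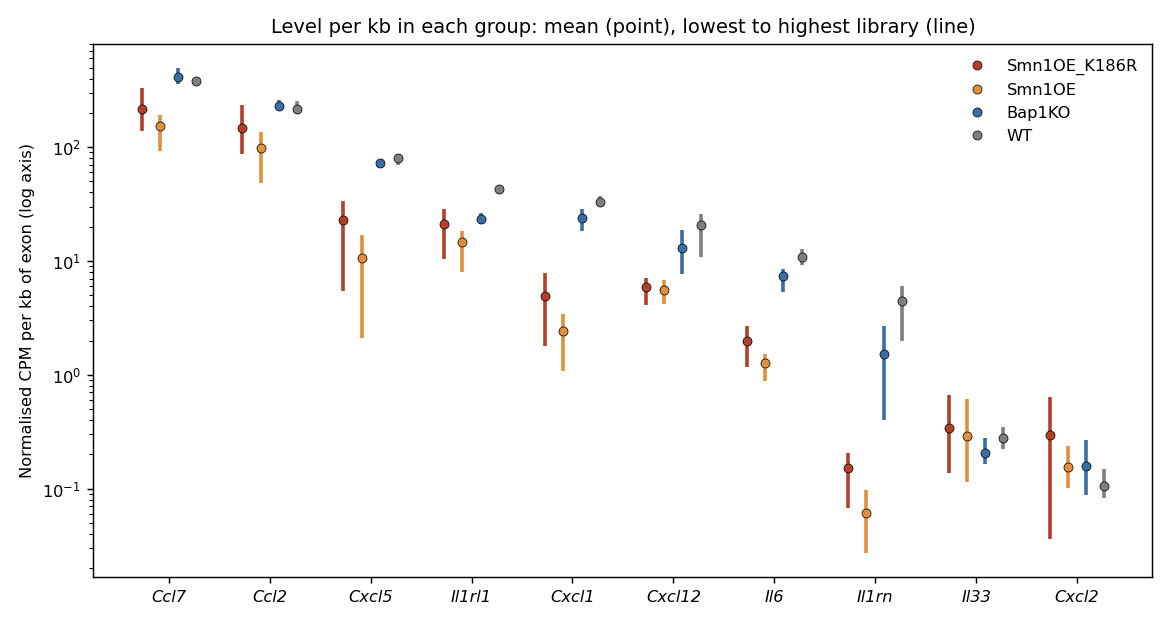
Level of each gene in normalised CPM per kb of exon (log axis) in Smn1OE_K186R, Smn1OE, Bap1KO and WT; points are means of 3 libraries and lines run over the range of the libraries. Genes are placed by their WT level, and Il1rn shows the widest distance between groups, with 0.0614 CPM per kb in Smn1OE and 4.44 CPM per kb in WT.

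Among the ELR chemokines, Cxcl1, a neutrophil attractant made by many stromal cells, had 14.7, 9.61 and 3.37 CPM in Smn1OE_K186R, 6.37, 5.35 and 2.01 CPM in Smn1OE, 53.9, 34.4 and 45.4 CPM in Bap1KO, and 69.5, 56.9 and 60.4 CPM in WT. No library with an SMN vector reached the lowest library without one, and Bap1KO lay below WT in all libraries. The log2 fold change was -2.26 ± 0.45 (SE) in Smn1OE_K186R against Bap1KO, -3.27 ± 0.47 in Smn1OE against Bap1KO and -0.48 ± 0.42 in Bap1KO against WT.

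Cxcl5, a second neutrophil attractant, had 56.5, 62.4 and 10.2 CPM in Smn1OE_K186R, 23.6, 31.5 and 3.94 CPM in Smn1OE, 142, 132 and 134 CPM in Bap1KO, and 130, 160 and 155 CPM in WT. Bap1KO and WT overlapped, and both stood above every SMN vector library. Within each SMN group the replicate 3 library, of media batch F, was far below the other 2. Cxcl5 gave a log2 fold change of -1.65 ± 0.63 in Smn1OE_K186R against Bap1KO and -2.78 ± 0.66 in Smn1OE against Bap1KO, and leaving out batch F gave -1.19 and -2.30. Bap1KO against WT gave -0.13 ± 0.61.

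Cxcl2, the close relative of Cxcl1, was near the limit of reading. It had 1.32, 0.451 and 0.0753 CPM in Smn1OE_K186R, 0.495, 0.254 and 0.208 CPM in Smn1OE, 0.253, 0.549 and 0.181 CPM in Bap1KO, and 0.183, 0.305 and 0.17 CPM in WT. The 4 groups overlapped, and these values rest on between 4 and 88 reads per library. The log2 fold change was 0.91 ± 0.74 in Smn1OE_K186R against Bap1KO, and its direction rested on 1 library: it was -0.29 without replicate 1 of Smn1OE_K186R. For comparison, 3 reads made 0.044 to 0.0586 CPM in these libraries.

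Cxcl12, which retains haematopoietic and endothelial cells through Cxcr4, had 53.7, 57.8 and 33.7 CPM in Smn1OE_K186R, 46.6, 56.1 and 34 CPM in Smn1OE, 154, 62.8 and 105 CPM in Bap1KO, and 202, 88.8 and 212 CPM in WT. Both SMN groups lay below all Bap1KO libraries, though the replicate 2 Bap1KO library was close to them, and that library and its WT partner in media batch B were each the lowest of their group. Its log2 fold change was -1.15 ± 0.36 in Smn1OE_K186R against Bap1KO, -1.23 ± 0.36 in Smn1OE against Bap1KO and -0.64 ± 0.36 in Bap1KO against WT.

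**Figure D2:**
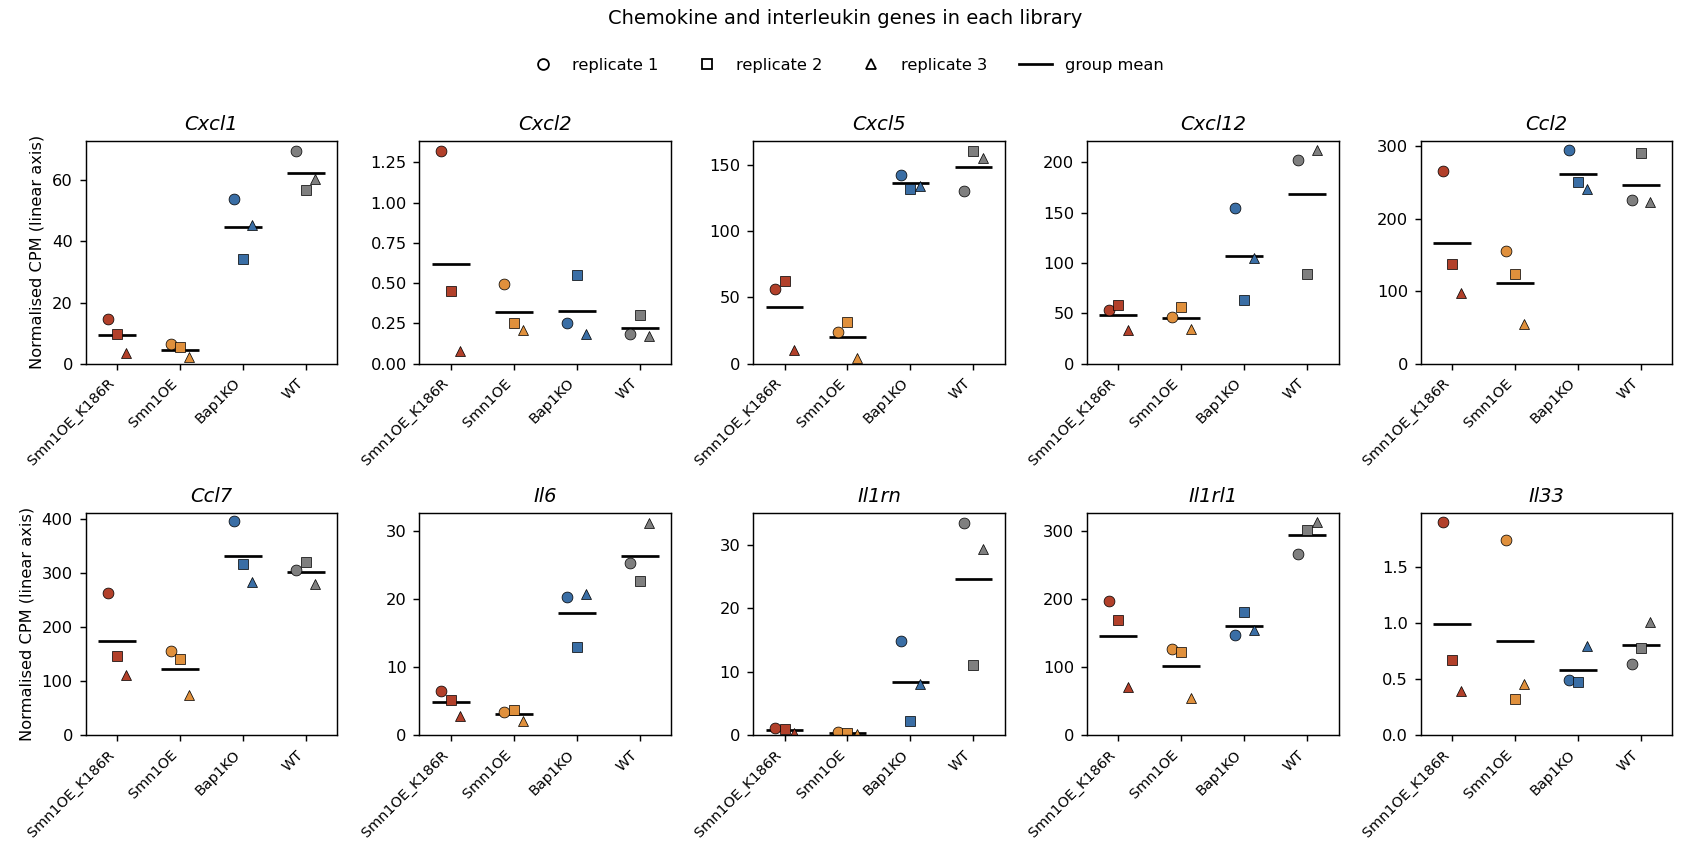
Normalised CPM (linear axis, from 0, with its own scale in each panel) of the 10 genes in each library of Smn1OE_K186R, Smn1OE, Bap1KO and WT; circles, squares and triangles are replicates 1, 2 and 3, and bars are group means. Cxcl1, Cxcl5, Cxcl12, Ccl7, Il6 and Il1rn have every SMN vector library below every Bap1KO library, whereas the groups of Cxcl2 and Il33 overlap.

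The monocyte chemokines Ccl2 and Ccl7, neighbours on chromosome 11, went side by side. Ccl2 had 266, 137 and 98.1 CPM in Smn1OE_K186R, 156, 123 and 54.8 CPM in Smn1OE, 295, 250 and 241 CPM in Bap1KO, and 226, 290 and 223 CPM in WT. Smn1OE lay below all Bap1KO libraries, whereas the replicate 1 library of Smn1OE_K186R lay among them. The log2 fold change was -0.65 ± 0.36 in Smn1OE_K186R against Bap1KO, -1.23 ± 0.37 in Smn1OE against Bap1KO and 0.09 ± 0.36 in Bap1KO against WT. Without the replicate 1 library of Smn1OE_K186R, the first of these was -1.16.

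Ccl7 had 263, 147 and 111 CPM in Smn1OE_K186R, 155, 141 and 73.7 CPM in Smn1OE, 395, 317 and 284 CPM in Bap1KO, and 306, 320 and 280 CPM in WT. Both SMN groups lay below all Bap1KO libraries, and Bap1KO overlapped WT. This gave log2 fold changes of -0.93 ± 0.30 in Smn1OE_K186R against Bap1KO, -1.43 ± 0.31 in Smn1OE against Bap1KO and 0.14 ± 0.30 in Bap1KO against WT.

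Il6, the founding cytokine of the gp130 family, had 6.45, 5.19 and 2.84 CPM in Smn1OE_K186R, 3.37, 3.7 and 2.16 CPM in Smn1OE, 20.3, 12.9 and 20.7 CPM in Bap1KO, and 25.3, 22.6 and 31.2 CPM in WT. The 2 SMN groups overlapped each other and stood apart below Bap1KO, and Bap1KO in turn stood below WT. Log2 fold changes of Il6 were -1.89 ± 0.29 in Smn1OE_K186R against Bap1KO, -2.54 ± 0.30 in Smn1OE against Bap1KO and -0.55 ± 0.28 in Bap1KO against WT.

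Il1rn, the interleukin 1 receptor antagonist, differed most between groups. It had 1.13, 1.02 and 0.377 CPM in Smn1OE_K186R, 0.54, 0.328 and 0.151 CPM in Smn1OE, 14.9, 2.24 and 8.04 CPM in Bap1KO, and 33.4, 11 and 29.3 CPM in WT. Both SMN groups stood below all Bap1KO libraries, while Bap1KO and WT overlapped, and the batch B library was the lowest in both. The Smn1OE values rest on 36, 22 and 8 reads, against 1001, 147 and 443 reads in Bap1KO. The log2 fold change was -3.30 ± 0.67 in Smn1OE_K186R against Bap1KO, -4.59 ± 0.74 in Smn1OE against Bap1KO and -1.55 ± 0.59 in Bap1KO against WT. Without replicate 1 of Bap1KO, the highest of its group, these were -2.59, -3.87 and -2.25, each a move of over 1.5 times.

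Il1rl1, which gives both the membrane receptor for interleukin 33 and a soluble decoy form that gene counts do not separate, had 197, 170 and 70.9 CPM in Smn1OE_K186R, 127, 123 and 54.6 CPM in Smn1OE, 147, 181 and 155 CPM in Bap1KO, and 266, 302 and 314 CPM in WT. Here the step lay between Bap1KO and WT, with no overlap, whereas Smn1OE_K186R overlapped Bap1KO and Smn1OE lay below it in all libraries. Il1rl1 gave a log2 fold change of -0.14 ± 0.34 in Smn1OE_K186R against Bap1KO, -0.66 ± 0.34 in Smn1OE against Bap1KO and -0.87 ± 0.34 in Bap1KO against WT. Without batch F the first of these turned to 0.19 and the second was -0.36.

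Il33, the ligand of that receptor, had 1.91, 0.669 and 0.395 CPM in Smn1OE_K186R, 1.75, 0.328 and 0.454 CPM in Smn1OE, 0.492, 0.473 and 0.799 CPM in Bap1KO, and 0.639, 0.778 and 1.01 CPM in WT. All groups overlapped, and the highest value of each SMN group was its library from media batch D. Il33 gave a log2 fold change of 0.77 ± 0.65 in Smn1OE_K186R against Bap1KO, 0.54 ± 0.65 in Smn1OE against Bap1KO and -0.46 ± 0.65 in Bap1KO against WT. Both positive values rested on the batch D libraries: without replicate 1 of Smn1OE_K186R the first turned to -0.13, and without replicate 1 of Smn1OE the second turned to -0.59.

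**Figure D3:**
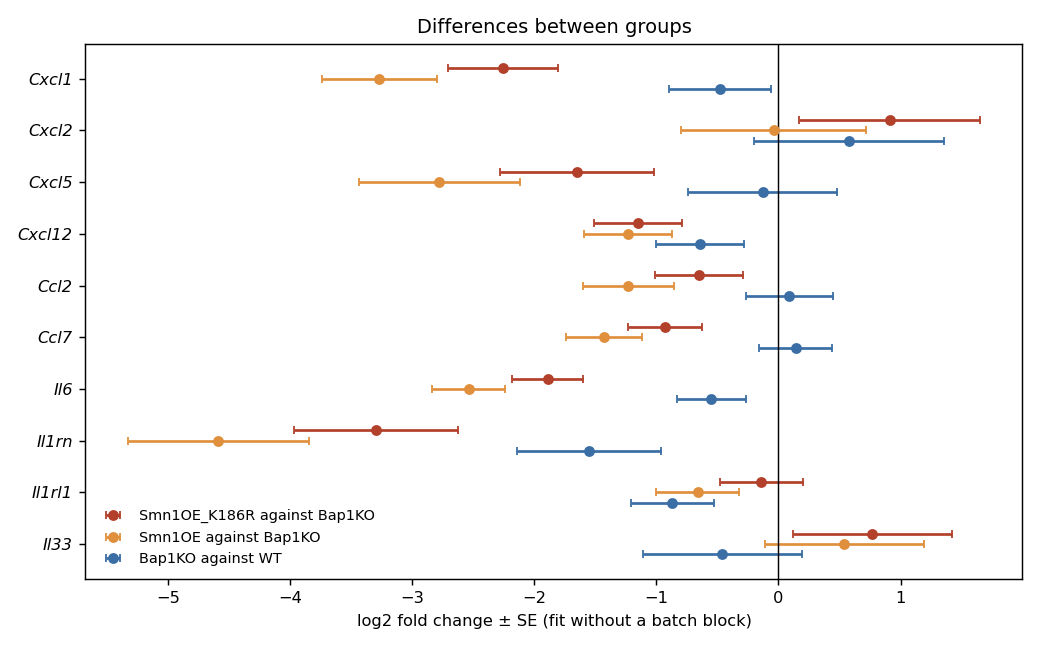
Log2 fold change (horizontal axis, point) with its standard error (bar) of each gene in Smn1OE_K186R against Bap1KO, Smn1OE against Bap1KO and Bap1KO against WT. Il1rn lies farthest left, at -4.59 in Smn1OE against Bap1KO, and Cxcl2 and Il33 are the 2 genes right of 0 in Smn1OE_K186R against Bap1KO, at 0.91 and 0.77; both turn below 0 (-0.29 and -0.13) without replicate 1 of Smn1OE_K186R.

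A gene was called at an adjusted p under 0.05 (edgeR quasi-likelihood test, Benjamini-Hochberg adjustment over 16597 genes). Since the set was chosen on these contrasts, the counts of its calls describe it and nothing is read from them. In Smn1OE_K186R against Bap1KO, 5 of the 10 genes were called, all lower, namely Cxcl1, Cxcl12, Ccl7, Il6 and Il1rn; over all genes 32.6% were called and 16.5% were called lower. In Smn1OE against Bap1KO, 7 were called, all lower, namely those 5 with Cxcl5 and Ccl2; over all genes 33.5% were called and 17.7% were called lower. In Bap1KO against WT none of the 10 was called, with 9.72% called over all genes. The 2 SMN comparisons share the Bap1KO libraries. In 6 of the 10 genes every Smn1OE_K186R library lay below every Bap1KO library (22% of all genes), and in 8 every Smn1OE library did (24.7% of all genes). The median log2 fold change of the set was -1.04 in Smn1OE_K186R against Bap1KO, -1.33 in Smn1OE against Bap1KO and -0.47 in Bap1KO against WT, beside -0.01, -0.01 and 0 over all tested genes. In bulk RNA a smaller number of expressing cells and less RNA per cell cannot be told apart.

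Some of these calls rested on single libraries. In Smn1OE against Bap1KO the call of Cxcl12 was lost without replicate 1 of Bap1KO (log2 fold change -0.89), without replicate 1 or replicate 3 of Smn1OE (-1.25 and -1.06) and without media batch F (-1.06), and that of Ccl2 without replicate 1 of Bap1KO (-1.14) or replicate 3 of Smn1OE (-0.91). In Smn1OE_K186R against Bap1KO the call of Cxcl12 was lost without replicate 1 or 3 of Smn1OE_K186R (-1.23 and -0.95), without replicate 1 or 3 of Bap1KO (-0.81 and -1.17) and without batch F (-0.95). There the call of Ccl7 was lost without replicate 2 or 3 of Smn1OE_K186R (-0.83 and -0.70), without replicate 1 of Bap1KO (-0.80), without media batch B (-0.98) and when only these 2 groups were fitted (-0.93). Cxcl5 was called there without batch F (-1.19), by limma voom with batch as a random effect (-1.97) and with low-count genes kept in the test (-1.66). Ccl2 was called there without replicate 1 of Smn1OE_K186R (-1.16) and with low-count genes kept (-0.66). Il1rl1 was called in Smn1OE against Bap1KO without batch F (-0.36) and with low-count genes kept (-0.67). Cxcl1, Il6 and Il1rn were called in both SMN comparisons whichever library was left out. Since the set was chosen on these same libraries, calls that were kept describe the set and are no support for it.

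Within the media batches that hold both SMN forms, most of the set was higher with the K186R form than with unmutated SMN. The differences in log2 CPM below are Smn1OE_K186R minus Smn1OE in batches D, E and F, with the mean ± SD over the 3 pairs. Cxcl1 was higher by 1.21, 0.84 and 0.75 (0.93 ± 0.24) and Cxcl5 by 1.26, 0.99 and 1.37 (1.21 ± 0.20), so that each kept 1 sign in the 3 pairs. Cxcl2, which also acts on neutrophils, had no common sign and gave 1.42, 0.83 and -1.44, with only 4 reads in the Smn1OE_K186R library of batch F. Cxcl12 gave 0.21, 0.04 and -0.02 (0.08 ± 0.11), the narrowest spread of the set and the mean nearest to 0.

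Ccl2 was higher by 0.77, 0.16 and 0.84 (0.59 ± 0.37) and Ccl7 by 0.77, 0.06 and 0.59 (0.47 ± 0.37), both with little difference in batch E. Il6 was higher by 0.94, 0.49 and 0.40 (0.61 ± 0.29). Il1rn was higher by 1.06, 1.63 and 1.30 (1.33 ± 0.28), from low levels in both groups, and Il1rl1 by 0.63, 0.46 and 0.38 (0.49 ± 0.13). Il33 gave 0.12, 1.02 and -0.20, a mean of 0.32 ± 0.63 with no common sign.

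In all, 7 of the 10 genes were above 0 in all 3 batches, a pattern that 17.9% of all tested genes showed. In the fit without a block none of the 10 genes was called in this comparison, and 0% of all genes were; DESeq2 called none either, and 388 genes had an unadjusted p under 0.05 in edgeR. The fit with media batch as a block called 48 genes, all higher in Smn1OE_K186R, which is 0.289% of those tested, and 3 of them belong to the set: Cxcl1 (log2 fold change 0.97 ± 0.11), Cxcl5 (1.18 ± 0.09) and Il1rl1 (0.49 ± 0.07). The blocked values of Il1rn (1.31 ± 0.30), Il6 (0.63 ± 0.13), Ccl2 (0.59 ± 0.12) and Ccl7 (0.47 ± 0.11) were also above 0 without a call. The set was chosen with this contrast known, so its share of the 48 is no test.

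**Figure D4:**
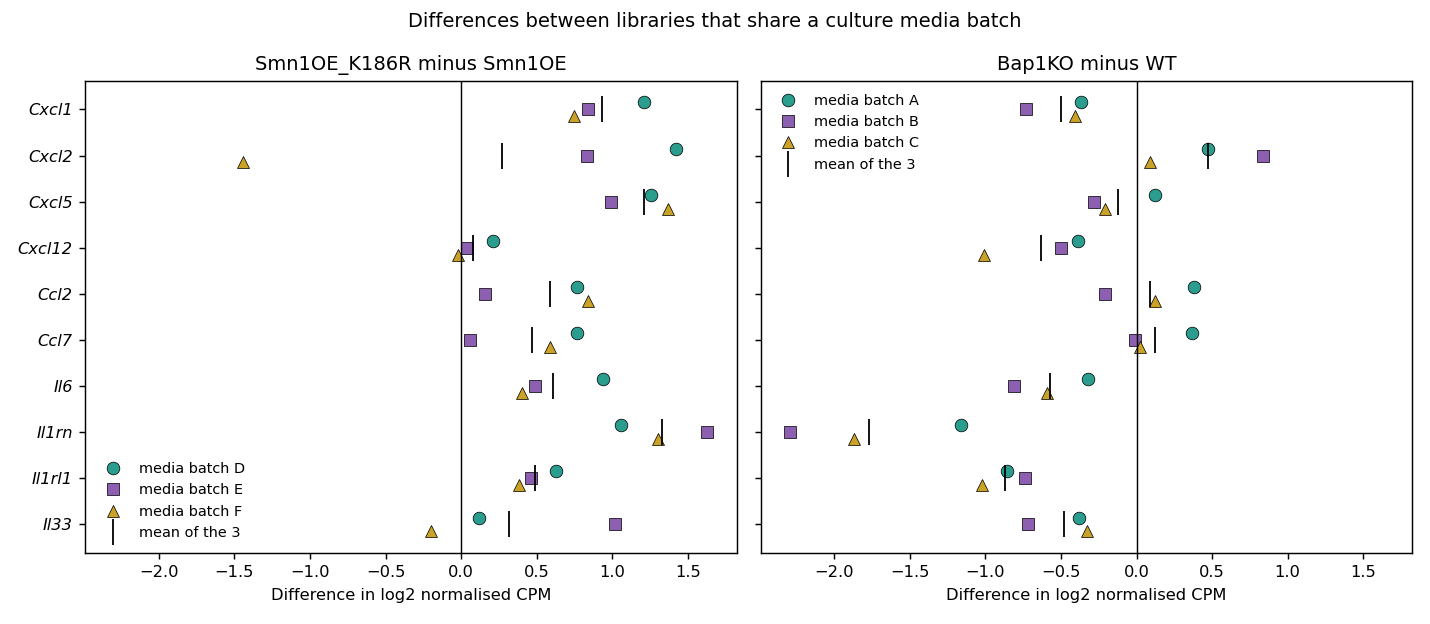
Differences in log2 normalised CPM (horizontal axis) between the 2 libraries of each culture media batch, Smn1OE_K186R minus Smn1OE in batches D, E and F (left) and Bap1KO minus WT in batches A, B and C (right); symbols are batches and bars are their mean. Cxcl1, Cxcl5, Ccl2, Ccl7, Il6, Il1rn and Il1rl1 lie right of 0 in all 3 batches on the left, and Cxcl1, Cxcl12, Il6, Il1rn, Il1rl1 and Il33 lie left of 0 in all 3 on the right. The first pattern was shown by 17.9% of all tested genes, and the share for the second was not computed.

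Levels also moved with the batch. In 9 of the 10 genes, all but Il33, replicate 3 (batch F) was the lowest library in both SMN groups, which held for 21.1% of all tested genes. Cxcl5 in batch F was at 10.2 CPM in Smn1OE_K186R and 3.94 CPM in Smn1OE, and Il1rl1 at 70.9 and 54.6 CPM. The batch F libraries were also the shallowest, at 52 and 51.2 M counts. The within-batch difference of Cxcl5 was as large in batch F (1.37) as in D (1.26), and leaving batch F out of the blocked fit gave 1.03 for Cxcl1, 1.12 for Cxcl5 and 0.55 for Il1rl1.

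Bap1KO minus WT was computed in the same way within batches A, B and C. Il1rn was lower by 1.16, 2.29 and 1.87 log2 units, the largest shift of the set (mean -1.77 ± 0.57). Il1rl1 gave -0.86, -0.74 and -1.02 (-0.87 ± 0.14), Cxcl12 -0.39, -0.50 and -1.01 (-0.63 ± 0.33), Il6 -0.32, -0.81 and -0.59 (-0.57 ± 0.25) and Cxcl1 -0.37, -0.73 and -0.41 (-0.50 ± 0.20). Il33 was also below 0 in all 3 batches (-0.38, -0.72 and -0.33), at or under 1.01 CPM in those libraries. Cxcl2 was above 0 in all 3 (0.47, 0.84 and 0.09), at or under 0.549 CPM. Cxcl5, Ccl2 and Ccl7 had no common sign, with means of -0.12 ± 0.22, 0.09 ± 0.30 and 0.12 ± 0.21. The share of all genes with a common sign in these 3 batches was not computed. Nor was the share with every Bap1KO library below every WT library. The blocked fit called 5 of the set, all lower in Bap1KO: Cxcl1 (-0.50 ± 0.09), Cxcl12 (-0.63 ± 0.10), Il6 (-0.57 ± 0.11), Il1rn (-1.73 ± 0.17) and Il1rl1 (-0.87 ± 0.07). That fit called 29% of all genes, and 17.2% lower. Without a block Il1rn and Il1rl1 were also called when genes with low counts were kept in the test (log2 fold change -1.54 and -0.86), as was Il1rn without replicate 1 of Bap1KO (-2.25) and Il1rl1 when only these 2 groups were fitted (-0.85).

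The receptors through which the chemokines of the set act were hardly read in these cultures. Cxcr2 had at most 4 reads in a library and Ccr2 had none in any of the 12, where 3 reads would make at most 0.0586 CPM. Cxcr4 lay at or under 0.596 CPM, with log2 fold changes of 0.82 ± 0.62 in Smn1OE_K186R and 0.45 ± 0.63 in Smn1OE against Bap1KO (edgeR adjusted p = 0.329 and 0.61). Ackr3, the scavenger of Cxcl12, was well read and fell. It had 8.75, 4.67 and 3.11 CPM in Smn1OE_K186R, 5.01, 3.25 and 2.16 CPM in Smn1OE and 25.8, 11.9 and 26.8 CPM in Bap1KO, with log2 fold changes of -1.96 ± 0.41 and -2.62 ± 0.43 against Bap1KO (edgeR adjusted p = 0.00484 and 0.00126). In Bap1KO against WT Ackr3 gave -0.68 ± 0.39 (edgeR adjusted p = 0.298), and -0.73 ± 0.10 with the media batch as a block (edgeR adjusted p = 0.000192). Of 23 chemokine receptors, 8 had enough reads for testing: 2 fell in Smn1OE_K186R against Bap1KO, 2 fell and 1 rose in Smn1OE against Bap1KO, and 1 rose in Bap1KO against WT. Besides Ackr3, Ccr7 fell in Smn1OE, from at most 0.563 CPM in Bap1KO. Both rises were of Cx3cr1, at most 0.17 CPM in WT, 0.526 CPM in Bap1KO and 1.3 CPM in Smn1OE. Its call in Smn1OE was lost without any 1 of 4 libraries (edgeR adjusted p up to 0.0831).

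Among the other chemokine ligands, 17 of 32 had enough reads. In Smn1OE_K186R against Bap1KO 5 fell and 2 rose, in Smn1OE against Bap1KO 5 fell and 1 rose, and in Bap1KO against WT 1 fell. Cxcl14, a chemokine abundant in stroma and skin, had 81, 41.1 and 20.7 CPM in Smn1OE_K186R, 35.1, 32 and 11.5 CPM in Smn1OE, and 402, 129 and 379 CPM in Bap1KO. Its log2 fold changes against Bap1KO were -2.67 ± 0.58 and -3.53 ± 0.61 (edgeR adjusted p = 0.00573 and 0.0016), the first being -3.30 without replicate 1 of Smn1OE_K186R. Cxcl3, an ELR chemokine related to Cxcl1, fell by 1.78 and 2.79 (edgeR adjusted p = 0.0272 and 0.00422), the first of which was lost without any 1 of 4 libraries (adjusted p up to 0.0858), when only these 2 groups were fitted (0.0512) and without batch F or B (0.0557 and 0.0827); without replicate 1 of Smn1OE_K186R the value was -2.50. Ccl9, a CC chemokine of myeloid cells, fell by 1.68 and 2.09 (edgeR adjusted p = 0.00529 and 0.00181). Cxcl10, a target of interferon, fell by 2.69 and 2.57 (edgeR adjusted p = 0.0338 and 0.0388), but these calls were fragile. The first was lost without any 1 of 4 libraries and the second without any 1 of 3, and both were lost when only the 2 groups were fitted, without batch F and by limma voom with batch as a random effect. The replicate 1 library of Bap1KO moved Cxcl10 most: it was at 5.75 CPM where the other 2 were at 0.412 and 1.2 CPM, and without it the log2 fold changes were -1.08 and -0.96 (edgeR adjusted p = 0.298 and 0.356). In Bap1KO against WT the membrane-bound chemokine Cx3cl1 fell, with 22.8, 16.4 and 17.1 CPM in Bap1KO against 48.7, 37.9 and 40.5 CPM in WT and a log2 fold change of -1.17 ± 0.17 (edgeR adjusted p = 0.00217).

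Of 19 other ligands and receptors of the interleukin 1 family, 8 were tested. None of the 8 was called in Smn1OE_K186R against Bap1KO, 3 fell in Smn1OE against Bap1KO and 2 fell in Bap1KO against WT. The ligands Il1a and Il1b had at most 4 and 5 reads in a library. Il1r1, the signalling receptor that Il1rn blocks, had 22.5, 34.8 and 10.6 CPM in Smn1OE_K186R, 14.7, 23.6 and 7.5 CPM in Smn1OE, and 69.2, 28.5 and 51.1 CPM in Bap1KO. It fell in Smn1OE against Bap1KO (log2 fold change -1.70 ± 0.46, edgeR adjusted p = 0.0148), a call lost without replicate 1 of Bap1KO (adjusted p = 0.0564) or replicate 3 of Smn1OE (0.0538), and gave -1.13 ± 0.45 in Smn1OE_K186R against Bap1KO (edgeR adjusted p = 0.0727). Il1r1 was called in the last comparison under 5 alternatives: with low-count genes kept (-1.14, adjusted p = 0.000873), by limma voom with batch as a random effect (-1.15, 0.0298), without replicate 2 of Bap1KO (-1.41, 0.0347), without replicate 2 of Smn1OE_K186R (-1.58, 0.0367) and without batch B (-1.42, 0.0375). Il1rap, the chain shared by the receptors for interleukin 1 and interleukin 33, gave -0.46 ± 0.34 in Smn1OE_K186R and -1.11 ± 0.35 in Smn1OE against Bap1KO (edgeR adjusted p = 0.319 and 0.0289), the second lost without any 1 of 4 libraries (adjusted p up to 0.0999). Il18, a ligand activated by inflammasomes, fell in Bap1KO against WT, with 0.805, 0.564 and 0.508 CPM in Bap1KO against 2.4, 2.78 and 2.75 CPM in WT and a log2 fold change of -2.07 ± 0.36 (edgeR adjusted p = 0.00593, and 0.0607 without media batch B).

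The interleukin 6 family list held 15 genes, of which 13 were tested. In Smn1OE_K186R against Bap1KO 5 fell and 1 rose, in Smn1OE against Bap1KO 6 fell and 2 rose, and in Bap1KO against WT 1 fell. Il6st encodes gp130, the signalling chain of the family, and fell by 0.92 in Smn1OE_K186R and by 1.28 in Smn1OE against Bap1KO (SE 0.27 and 0.28, edgeR adjusted p = 0.0235 and 0.00485), the first lost without any 1 of 3 libraries (adjusted p up to 0.0912). Il6ra, the chain that binds interleukin 6, gave 0.05 ± 0.24 and -0.10 ± 0.24 (edgeR adjusted p = 0.9 and 0.783). Osmr, the oncostatin M receptor, fell by 1.06 and 1.61 (edgeR adjusted p = 0.0322 and 0.00487). Socs3, a feedback inhibitor induced by this pathway, fell by 1.35 and 1.58 (edgeR adjusted p = 0.0183 and 0.00867). The calls of Osmr and Socs3 in Smn1OE_K186R were each lost without any 1 of 3 libraries (adjusted p up to 0.0873 and 0.0688), and those in Smn1OE were kept whichever library was left out.

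Of 28 genes of MyD88 and NF-kB signalling, 27 were tested, and calls went both ways. In Smn1OE_K186R against Bap1KO 9 fell and 7 rose, in Smn1OE against Bap1KO 7 fell and 4 rose, and in Bap1KO against WT 2 rose. The last 2 were Ikbkg, lost without 1 library (edgeR adjusted p = 0.0621), and Irak1, lost without any 1 of 5 (up to 0.123). Feedback inhibitors of NF-kB that are also its targets moved in opposite directions. Nfkbia, which holds NF-kB in the cytoplasm, had 26.6, 21.8 and 20.2 CPM in Smn1OE_K186R, 22.2, 22.3 and 19.8 CPM in Smn1OE, and 29.1, 38.7 and 38.6 CPM in Bap1KO, and fell by 0.63 and 0.73 (edgeR adjusted p = 0.00613 and 0.00293). Tnfaip3, the ubiquitin-editing enzyme A20, had 8.06, 8.59 and 5.69 CPM in Smn1OE_K186R, 11.9, 7.41 and 6.68 CPM in Smn1OE, and 2.47, 3.35 and 3.09 CPM in Bap1KO, and rose by 1.33 ± 0.26 and 1.55 ± 0.26 (edgeR adjusted p = 0.00354 and 0.00152).

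Bcl3, a nuclear relative of Nfkbia, fell by 1.96 and 2.64 in Smn1OE_K186R and Smn1OE against Bap1KO (edgeR adjusted p = 0.0178 and 0.00487), the first lost without any 1 of 3 libraries (adjusted p up to 0.0672). Irak3, an inhibitor of receptor signalling, fell by 1.27 and 1.81 (edgeR adjusted p = 0.00667 and 0.00124). Irak2, a kinase of the same receptor complex, rose by 0.67 and 0.77 (edgeR adjusted p = 0.00446 and 0.00197). Zc3h12a, an RNase that degrades Il6 mRNA, fell by 0.60 in both (edgeR adjusted p = 0.00216 and 0.00179). The subunit Rela gave 0.07 ± 0.08 and 0.16 ± 0.08 (edgeR adjusted p = 0.52 and 0.152), and Nfkb1 gave 0.37 ± 0.11 and 0.27 ± 0.11 (edgeR adjusted p = 0.0203 and 0.0679), the first lost without any 1 of 4 libraries (adjusted p up to 0.073), when only these 2 groups were fitted (0.0626) and without batch B (0.0949), and the second called without replicate 3 of Bap1KO (0.0366).

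Among 24 other cytokines and inflammatory effectors, 22 were tested. Of these, 3 fell and 3 rose in Smn1OE_K186R against Bap1KO, 8 fell and 4 rose in Smn1OE against Bap1KO, and 1 fell and 1 rose in Bap1KO against WT. The rise in Bap1KO was of Ptgs2, a call lost without any 1 of 4 libraries (edgeR adjusted p up to 0.107). Ptgs2, the inducible cyclooxygenase, rose in Smn1OE_K186R, with 1598, 1987 and 1611 CPM against 563, 1015 and 861 CPM in Bap1KO (log2 fold change 1.09 ± 0.22, edgeR adjusted p = 0.00416). It was above every Bap1KO library in Smn1OE as well, at 1572, 1395 and 1512 CPM. Ptx3, a secreted pattern recognition protein, fell in Smn1OE, with 159, 142 and 30.8 CPM against 626, 339 and 694 CPM in Bap1KO (-2.32 ± 0.60, edgeR adjusted p = 0.0122). In Smn1OE_K186R it was also below every Bap1KO library, at 300, 188 and 57.2 CPM. Il15, a cytokine for natural killer cells, fell in Bap1KO against WT, with 0.879, 0.808 and 0.799 CPM in Bap1KO against 3.01, 3.39 and 3.28 CPM in WT (-1.96 ± 0.22, edgeR adjusted p = 0.000899). Over the 6 lists together, 37 of 95 tested genes (38.9%) were called in Smn1OE_K186R against Bap1KO and 43 (45.3%) in Smn1OE against Bap1KO, with 9 (9.5%) in Bap1KO against WT, beside the 32.6%, 33.5% and 9.72% of all genes given above. By list, in the order described, 25, 41.2, 0, 46.2, 59.3 and 27.3% were called in Smn1OE_K186R against Bap1KO. In Smn1OE against Bap1KO these shares were 37.5, 35.3, 37.5, 61.5, 40.7 and 54.5%. In Bap1KO against WT they were 12.5, 5.9, 25, 7.7, 7.4 and 9.1%.

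In the blocked fit 37 of these 95 genes were called in Bap1KO against WT, 26 lower and 11 higher, beside the 29% of all genes given above. In Smn1OE_K186R against Smn1OE none was called without the block and 4 with it, all higher. These were Cxcl14 (log2 fold change 0.80, edgeR adjusted p = 0.0447), Il1rap (0.63, edgeR adjusted p = 0.0378), Osmr (0.53, edgeR adjusted p = 0.0295) and Ptx3 (0.74, edgeR adjusted p = 0.0229). Their within-batch differences were above 0 in all 3 pairs, at 1.20, 0.36 and 0.84 for Cxcl14, 0.63, 0.70 and 0.56 for Il1rap, 0.60, 0.54 and 0.45 for Osmr, and 0.92, 0.41 and 0.89 for Ptx3. The blocked fit called these genes on the same differences, so the common sign is no further support. With the block and without media batch F, none of the 95 was called and Il1rap gave 0.66 (edgeR adjusted p = 0.13).

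**Figure D5:**
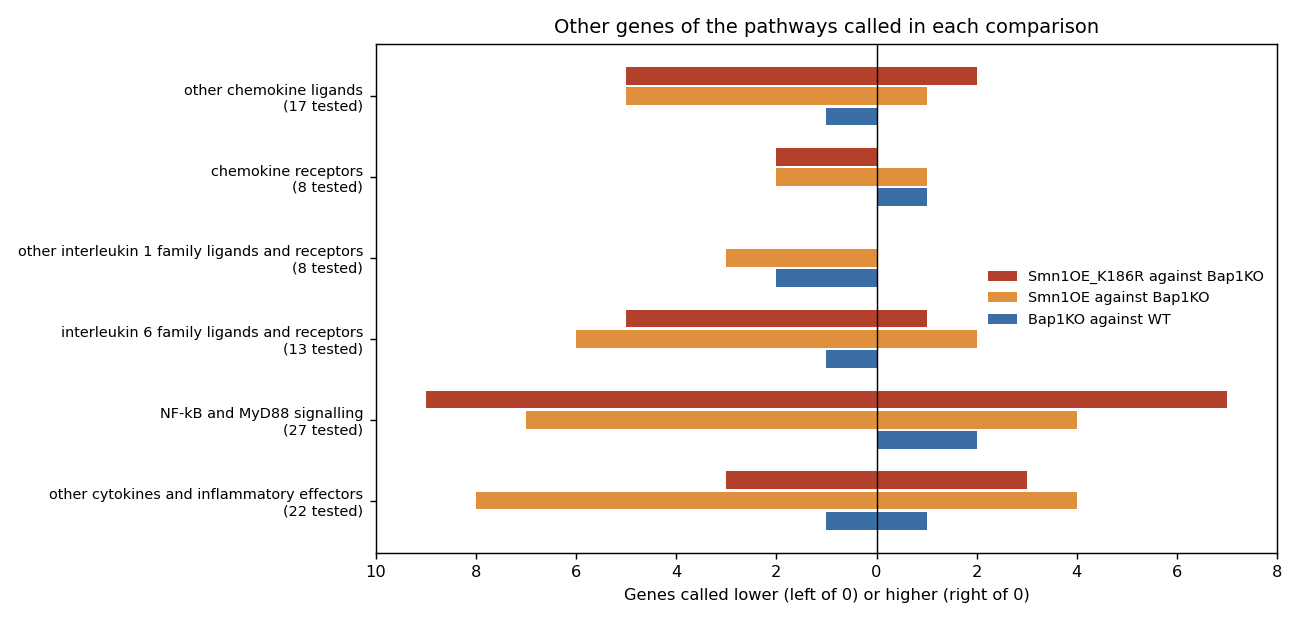
Number of genes (horizontal axis) of 6 lists outside the set that were called lower (left of 0) or higher (right of 0) in Smn1OE_K186R against Bap1KO, Smn1OE against Bap1KO and Bap1KO against WT, in the fit without a block. Calls of other chemokine ligands with an SMN vector are mostly lower (5 against 2 higher in Smn1OE_K186R and 1 in Smn1OE), whereas MyD88 and NF-kB signalling has 9 lower and 7 higher in Smn1OE_K186R. Of the 17 tested ligands, 41.2% and 35.3% are called in Smn1OE_K186R and Smn1OE against Bap1KO, beside 32.6% and 33.5% of all genes.

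Likeness between genes was measured as the root mean square difference of their centred log2 CPM over the 12 libraries, which share their groups, batches and depth. Ccl2 and Ccl7 were each other's nearest gene of all tested, at 0.15. The next nearest pairs within the set were Ccl2 with Il1rl1 at 0.42, Ccl7 with Il1rl1 at 0.45, Cxcl1 with Il6 at 0.48 and Cxcl1 with Cxcl5 at 0.53. The farthest pair was Cxcl2 with Il1rn, at 2.90. Outside the set, the nearest genes were Prelp for Cxcl1 (0.24), Dact1 for Cxcl12 (0.16), Zbtb7c for Il6 (0.22), S1pr1 for Il1rl1 (0.21), Ptx3 for Cxcl5 (0.44), Sfrp1 for Il1rn (0.53), Ccdc162 for Il33 (0.41) and Gm13071 for Cxcl2 (0.56). Ackr3 was the third nearest to Il6, at 0.26.

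Defining markers of leukocytes and endothelium were at or near 0, though some other markers on the same lists were read. Ptprc, the pan-leukocyte marker, reached 0.322 CPM, Adgre1 of macrophages 0.0155 CPM, Itgam of myeloid cells 0.0895 CPM, Cpa3 of mast cells 0.0746 CPM and Pecam1 of endothelium 0.704 CPM, and Cd3e of T cells had no read. Of 14 macrophage and monocyte markers, 10 stayed under 1 CPM in every library, and the other 4 were Csf1r (4.52 to 21.5 CPM over all libraries), Cd68 (2.37 to 12.2), Lyz2 (3.79 to 10.6) and Cd14 (1.5 to 6.1). The summed level of this list was 22.4 to 31 CPM in Smn1OE_K186R, 23 to 28.5 CPM in Smn1OE, 28.7 to 36.5 CPM in Bap1KO and 26.8 to 32.7 CPM in WT. Cd68 was higher in every SMN vector library (7.39 to 12.2 CPM) than in any other (2.37 to 5.59 CPM). The sum of the neutrophil list was at most 1.95 CPM in any library. Among 8 T and NK cell markers Trac was the 1 that passed 1 CPM, at 1.89 to 2.99 CPM, and among 8 mast cell and ILC2 markers Gata3 was, at 0.715 to 2.59 CPM. The 8 endothelial markers summed to 2.71 to 3.42 CPM in Smn1OE_K186R, 2.88 to 3.24 CPM in Smn1OE, 3.11 to 4.13 CPM in Bap1KO and 5.36 to 6.66 CPM in WT, with Tek at up to 5.65 CPM.

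The 14 FAP and fibroblast markers had a summed level of 5401 to 6997 CPM in Smn1OE_K186R, 4649 to 6666 CPM in Smn1OE, 10282 to 17164 CPM in Bap1KO and 15867 to 22400 CPM in WT. Most of that sum was Col1a1 (2656 to 14315 CPM over all libraries) and Col3a1 (327 to 4652 CPM), and the markers did not all move alike. Pdgfra lay at 15.5 to 29.1 CPM in Smn1OE_K186R, 13.9 to 20.7 CPM in Smn1OE, 26.2 to 39.3 CPM in Bap1KO and 75.8 to 106 CPM in WT. Lum lay at 0.0749 to 0.656 CPM in Smn1OE, 0.508 to 7.63 CPM in Bap1KO and 2.77 to 10.1 CPM in WT. Pi16 lay at 0.0757 to 0.283, 0.686 to 3.49 and 1.8 to 3.63 CPM in these groups, and Dcn at 24.6 to 86.7, 57.4 to 212 and 218 to 409 CPM. In Smn1OE_K186R Lum, Pi16 and Dcn reached at most 0.32, 0.174 and 90.1 CPM. Cd34 went the other way with an SMN vector, at 45.5 to 90.7 CPM in Smn1OE_K186R and 40.4 to 101 CPM in Smn1OE, against 18 to 27 CPM in Bap1KO. Gsn stayed within 806 to 1133 CPM over all libraries, and Prrx1 overlapped between Bap1KO (211 to 245 CPM) and WT (205 to 244 CPM). The 8 myogenic markers also moved with the groups, with a sum of 266 to 554 CPM in Smn1OE_K186R, 338 to 597 CPM in Smn1OE, 144 to 341 CPM in Bap1KO and 107 to 154 CPM in WT. Nearly all of it was the skeletal actin Acta1 (102 to 596 CPM), whereas the myogenic regulators Pax7, Myf5, Myod1 and Myog stayed at or under 0.0608 CPM. The 8 pericyte and smooth muscle markers summed to 243 to 434 CPM in Smn1OE_K186R, 269 to 443 CPM in Smn1OE, 196 to 293 CPM in Bap1KO and 225 to 297 CPM in WT. The part of these marker shifts in the levels of the chemokine and interleukin genes was not tested.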

How the data were processed

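The authors deposited raw read counts per Ensembl gene ID, 1 table per library and not normalized; the submitters' processing notes list STAR 2.6.1, HTSeq 0.9.1, CASAVA 1.8.2, cutadapt 1.4.2 and DESeq2, with GRCm39 as the build, and the libraries were paired-end TruSeq. The strand setting and annotation release are not given in the sources used here, so overlapping or antisense genes are uncertain. Closing rows that name no gene (11.11 to 14.56% of records) were left out. Symbols and exon lengths were taken from GENCODE M21, made for GRCm38; 55154 IDs matched.

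Counts were fitted with edgeR 4.0.16 in R 4.3.3 (TMM, filterByExpr with a minimum count of 10, quasi-likelihood test over all 12 libraries, 8 residual degrees of freedom, prior count 0.125, 2-sided). SE is the log2 fold change divided by the root of F. For genes with many reads, precision was set by replicate spread (common biological coefficient of variation 0.179) more than by depth. Low counts also limit Cxcl2, Il33 and, with an SMN vector, Il1rn. Floors of 3 counts cover counting error only. An exact permutation test of 3 against 3 cannot go below p = 0.1, so none was run. Fits were tested on simulated data.

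The labels give shared media batches. Deviations from group means correlated at 0.52 to 0.73 between Bap1KO and WT libraries of 1 batch (-0.62 to 0.1 across batches) and at 0.53 to 0.72 between SMN libraries of 1 batch (-0.52 to -0.01 across). The block on batch (4 residual degrees of freedom), DESeq2 1.42.0, limma 3.58.1 voom with batch as a random effect (correlation 0.45), other filters and left-out libraries were alternatives.

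The set and the lists (141 other pathway genes, 95 tested; cell type markers) were chosen with earlier results of these data known. Genes named outside the set were, per list and comparison, up to 4 called genes of largest fold change averaging at least 1 CPM in a group, with fixed receptors and regulators; 3 nearest genes were taken for likeness.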

Additional observations from a re-analysis of the deposited data

How the results depend on the processing

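Over the 3 comparisons with calls, other size factors changed no count by over 1.5 times, and no called gene changed sign. Of 520 recomputed values of the set, called or not, 18 changed sign, all where the gene was not called in the main fit. They were 9 of Cxcl2, 5 of Il33, 2 of Il1rl1 and 2 of Cxcl12. Without replicate 1 of Smn1OE_K186R Cxcl2 gave -0.29 and Il33 -0.13 against Bap1KO, and without replicate 1 of Smn1OE Il33 gave -0.59. In Bap1KO against WT 1614 genes were called; DESeq2 called 2560, the media batch as a replicate block 4814, leaving out media batch B 401 (3084 with the block), and leaving out 1 library 535 to 1457. Of the pathway lists 9 genes were called there, 16 with no filter on low counts, 37 with the replicate block, 3 without batch B (29 with the block) and 4 to 10 on leaving out 1 library. In Smn1OE against Bap1KO 5567 genes were called, 3655 without batch F and 3512 to 5627 on leaving out 1 library, with 43 pathway genes and 26 to 45. In Smn1OE_K186R against Bap1KO 5416 were called, 3462 when only these 2 groups were fitted and 3385 to 5309 on leaving out 1 library, with 37 pathway genes and 22 to 40. In Smn1OE_K186R against Smn1OE the 0 genes became 48 with the replicate block (4 of the pathway lists) and 15 with the block and no batch F. Scaled by library size alone, 2 genes of the set and not 1 were above 0 in all 3 batches in Bap1KO minus WT. The causes were not tested. Leaving out batch B or F was chosen after seeing the data. Low counts limit Cxcl2, Il33 and, with an SMN vector, Il1rn.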
